A study of Mus musculus with 25 samples.

Results

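The 10 genes described here belong to the circadian clock of the mouse: Arntl, Per1, Per2, Cry1, Cry2, Nr1d1, Nr1d2, Bhlhe40, Dbp and Ccrn4l. They were chosen by symbol among the 24411 gene symbols of the count files, with earlier results of these data known. Every comparison was fitted on the whole table. RNA was sequenced from 25 samples in 9 conditions. BMDMs (bone marrow-derived macrophages) were grown from bone marrow of C57BL/6 mice for 4 days in DMEM with 25 ng/ml M-CSF, the growth factor that drives precursors to macrophages. They were left untreated (the control, labelled as cultured for 4 h), given IFN-γ at 100 U/ml and LPS at 100 ng/ml (labelled 1, 4, 12 or 24 h), or given IL-4 (10 ng/ml) or IL-13 (10 ng/ml) for 12 h, with 3 libraries per condition. RAW264.7, a transformed mouse macrophage line grown in RPMI, was left untreated (labelled 4 h) or given LPS (100 ng/ml) without IFN-γ for 4 h, with 2 libraries per condition. The study calls the IFN-γ step priming, that is, given ahead of LPS, whereas the labels give both agents the same hours, so the total time in IFN-γ is not known. The study describes its BMDM triplicates as biological, made from independent RNA. The labels do not say whether these came from separate animals or cultures, nor what the RAW264.7 pairs are, and the p-values measure the spread between these libraries.

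The clock is a loop of transcription. ARNTL (BMAL1) pairs with CLOCK, binds E-boxes and activates the Per and Cry genes, whose proteins return to block that pair, while the nuclear receptors NR1D1 and NR1D2 (REV-ERBα and REV-ERBβ) hold Arntl down through ROR elements. BHLHE40 competes at E-boxes, DBP carries the rhythm to genes with D-boxes, and the Ccrn4l product nocturnin is a rhythmic phosphatase of NADP(H). Macrophages keep a clock of their own, and the REV-ERB proteins are known repressors of inflammatory genes in them.

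The single BMDM control was collected at a culture time of 4 h, and the labels name no step that sets the phase of the clock. Hours of culture and treatment therefore cannot be told apart at 1, 12 and 24 h of any agent, and only the 4 h comparison is matched in labelled time, with any earlier hours of IFN-γ not counted. Between IFN-γ + LPS, IL-4 and IL-13 at 12 h, the labelled times are equal.

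Promoters of 8 of the 10 genes were found in RefSeq (GRCm38.p6, the mm10 build), in 10 windows from 250 bases before to 50 after a transcription start. Both strands were searched for the E-box CACGTG (in 7.15% of all 32851 promoter windows), the E-box-like CACGTT (4.68%), the D-box TTANGTAA (2.32%), the ROR element (AA, any base, T, any base, then GGTCA; 0.606%), the CRE TGACGTCA (1.79%), its inner stretch TGACG (20.8%), which every CRE also contains, and the NF-κB site (GGG and TTCC with 3 bases between; 5.56%). The E-box was in the windows of 2 of the 8 genes, Per1 and Cry1, whose transcripts went opposite ways after IFN-γ + LPS. The E-box-like letters were in 3 (Cry1, Cry2 and Nr1d1), the ROR element in 1 (Arntl) and TGACG in 4 (Per1, Cry1, Cry2 and Ccrn4l). The D-box in the form searched, the full CRE and the NF-κB site were in 0. Other forms of the D-box were not searched, and the Per1 stretch below holds ttatgcaa, which differs from TTANGTAA in 1 letter. The windows of 2 genes, Nr1d2 and Dbp, held none of the letters searched, and both transcripts fell after IFN-γ + LPS. The 250 bases before the start are shown for Per1 and Cry1, which hold the E-box (166 and 60 bases before the start), and for Nr1d2 and Dbp, which hold no match. For Per1 this is 1 of its starts. The window of its other start, not shown, holds no E-box, and its TGACGtcg differs from the full CRE in 1 letter. For Arntl, 30 bases around the ROR element, 28 bases into 1 of its starts, are shown, with the matched letters in capitals (E-box, E-box-like, ROR element or TGACG). Each runs 5′ to 3′ on the strand of the gene. A match is a description of letters and shows no binding. Bases outside the windows were not searched, and a link between the letters and the changes was not tested.
Per1, chr11:69098699-69098948, plus strand: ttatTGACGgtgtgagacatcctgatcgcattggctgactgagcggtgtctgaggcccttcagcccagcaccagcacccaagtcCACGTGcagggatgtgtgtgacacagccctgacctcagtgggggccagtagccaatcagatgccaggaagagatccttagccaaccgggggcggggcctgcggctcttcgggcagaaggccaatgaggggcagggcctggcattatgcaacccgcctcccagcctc
Cry1, chr10:85185055-85185304, minus strand: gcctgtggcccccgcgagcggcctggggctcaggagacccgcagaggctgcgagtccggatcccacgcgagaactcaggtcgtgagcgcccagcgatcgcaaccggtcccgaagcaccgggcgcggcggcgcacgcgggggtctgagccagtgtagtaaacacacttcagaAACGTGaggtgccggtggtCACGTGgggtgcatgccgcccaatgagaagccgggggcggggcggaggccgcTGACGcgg
Nr1d2, chr14:18239107-18239356, minus strand: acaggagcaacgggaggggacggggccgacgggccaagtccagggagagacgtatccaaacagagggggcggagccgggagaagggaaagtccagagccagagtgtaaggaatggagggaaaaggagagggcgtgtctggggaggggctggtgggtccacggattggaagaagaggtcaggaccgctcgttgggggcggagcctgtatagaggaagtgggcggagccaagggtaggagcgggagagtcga
Dbp, chr7:45704997-45705246, plus strand: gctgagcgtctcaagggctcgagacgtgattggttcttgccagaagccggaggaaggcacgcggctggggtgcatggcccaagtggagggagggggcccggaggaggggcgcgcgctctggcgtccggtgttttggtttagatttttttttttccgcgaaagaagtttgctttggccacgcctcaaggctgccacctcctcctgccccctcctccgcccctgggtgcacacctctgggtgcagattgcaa
Arntl, chr7:113207528-113207557, plus strand: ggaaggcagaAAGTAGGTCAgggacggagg

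The genes lie, in GENCODE M21 on GRCm38, at chr7:113207465-113314126 (Arntl, plus strand), chr11:69095217-69109960 (Per1, plus), chr1:91415982-91459324 (Per2, minus), chr10:85131700-85185064 (Cry1, minus), chr2:92403646-92434043 (Cry2, minus), chr11:98767932-98775333 (Nr1d1, minus), chr14:18204054-18239127 (Nr1d2, minus), chr6:108660629-108666925 (Bhlhe40, plus), chr7:45705088-45710203 (Dbp, plus) and chr3:51224447-51251644 (Ccrn4l, there named Noct, plus). All are protein coding. Nr1d1 and Thra, a thyroid hormone receptor gene on the opposite strand, overlap over 1075 bases, and the 25 libraries held 67 sense and 39 antisense counts at Nr1d1. Thra itself was called lower at 4 h (-1.61 on the log2 scale) and 24 h (-1.45) of IFN-γ + LPS, calls that leaving out 1 library could end.

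Sense counts on genes numbered 2378639 to 3357300 per library (median 2718848), of which the ribosomal precursor Rn45s took 20.1% to 39.8%. Without Rn45s, 1502618 to 2532496 counts were left per library, and CPM, the counts scaled to a library of 1000000, are given relative to these. Antisense counts at Rn45s split the BMDM libraries by group: they were 0.00603% to 0.0214% of counts in the 9 libraries of 24 h IFN-γ + LPS, IL-4 and IL-13, and 0.0386% to 0.122% in the other 12 BMDM libraries. The labels give no batch, and this split cannot be told apart from the treatments. Comparisons of the control or of 12 h IFN-γ + LPS with 24 h, IL-4 or IL-13 lie across it. Of 10 listed macrophage markers 9 had a row, and all 9 were detected in BMDMs, with a summed level of 16474 to 31304 CPM. Most of this was Lyz2 (mean 22611 CPM in control), and single markers moved both ways with IFN-γ + LPS. Mean Cd68 went from 944 CPM in control to 305 CPM at 12 h and Mertk from 89.0 to 25.2 CPM at 24 h. Adgre1 went from 1064 to 4009 CPM at 24 h and Cd14 from 315 to 3239 CPM at 4 h. In RAW264.7 the sum was 11445 to 12366 CPM, and Mertk, a receptor for dying cells on mature macrophages, was at 0. The 4 T cell markers were at 0 in every library, and the 4 fibroblast markers summed to 65.5 to 91.4 CPM in control, 33.4 to 68.0 CPM at 4 h and 19.7 to 47.0 CPM at 12 h of IFN-γ + LPS, and 0 in RAW264.7. Neutrophil markers summed to 14.3 to 24.4 CPM in control, 29.0 to 40.9 CPM at 1 h and 26.7 to 36.7 CPM at 4 h, with S100a8 the most abundant. The part of these cells in the results was not tested. In such bulk cultures, fewer cells of a type and less RNA per cell cannot be told apart.

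Per kilobase of merged exons, the untreated BMDMs held most of Nr1d2 (19.99 CPM per kb) and Bhlhe40 (14.3 CPM per kb). Dbp (4.73), Per1 (3.11), Cry1 (2.18), Arntl (2.04) and Ccrn4l (1.29 CPM per kb) followed. Cry2 (0.841), Nr1d1 (0.767) and Per2 (0.235 CPM per kb) came last. The low level of these 3 genes left them under the count filter in every BMDM fit, with 0 to 15 counts per BMDM library. The other 7 genes could be tested there, and a gene was called when the quasi-likelihood F test of edgeR gave an FDR (adjusted p, by Benjamini and Hochberg over all genes tested) of at most 0.01.

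**Figure D1:**
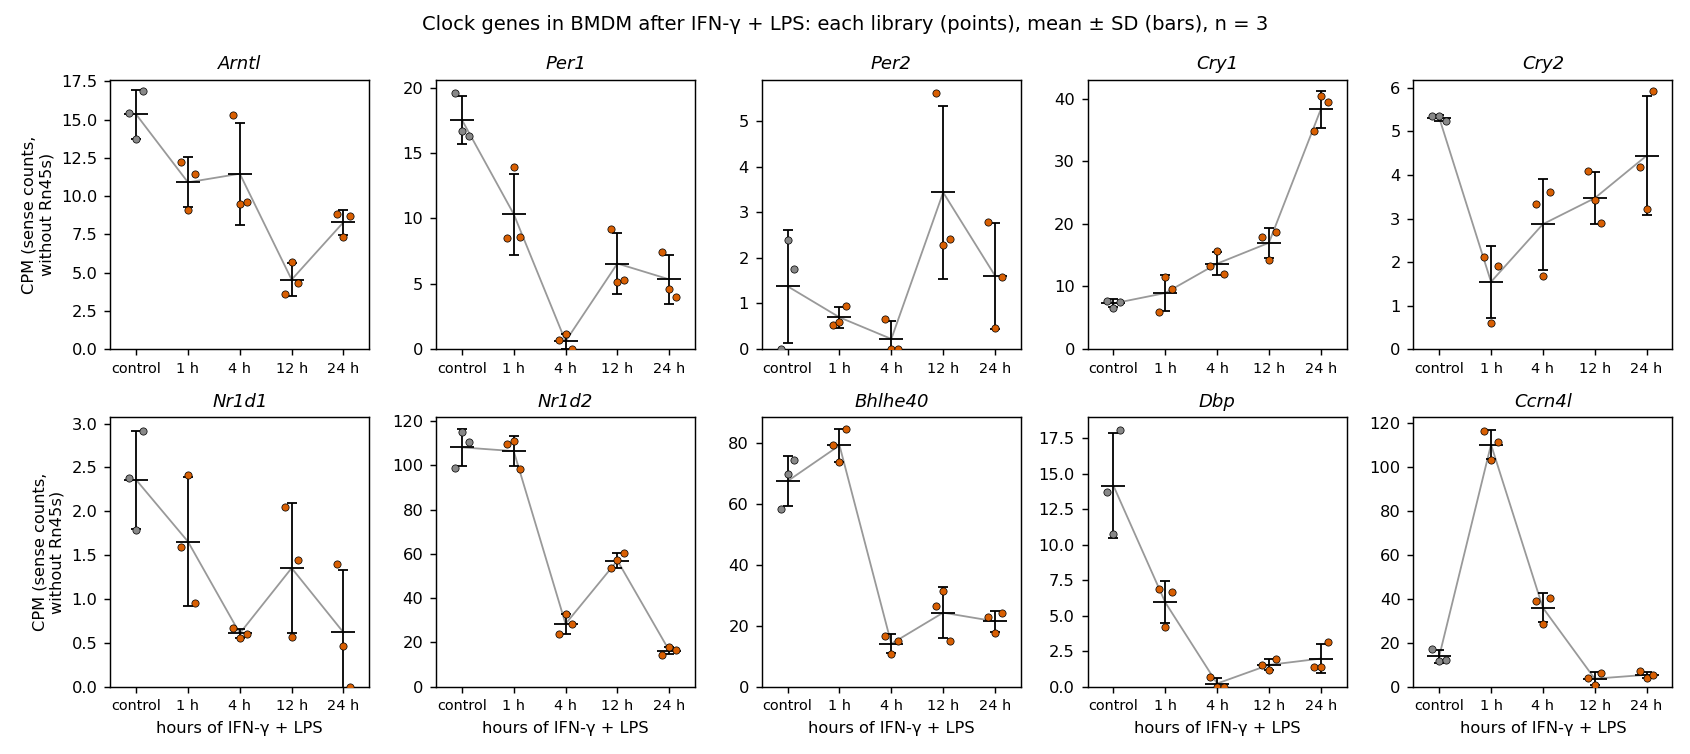
Levels of the 10 clock genes in BMDMs, in CPM of sense counts without Rn45s (vertical axis, from 0), in the control and after 1, 4, 12 and 24 h of IFN-γ + LPS (evenly spaced). Points are libraries, bars the mean ± SD of 3, and grey lines join means. Per1 and Dbp reach their lowest means at 4 h (0.593 and 0.222 CPM), Ccrn4l peaks at 1 h (110 CPM), and Cry1 is highest at 24 h (38.3 CPM).

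After IFN-γ + LPS, most of the clock genes that could be tested were downregulated from 4 h on, while Cry1 was upregulated and Ccrn4l went up and then below the control. Of the 7 tested, 2 were called at 1 h (1 higher, 1 lower), where 26.0% of all 9568 genes tested were called (14.7% higher, 11.3% lower). At 4 h, 6 were called (2 higher, 4 lower) against 51.5% of all genes (26.0% higher, 25.6% lower). At 12 h, all 7 tested were called (1 higher, 6 lower) against 47.3% (23.9% higher, 23.4% lower). At 24 h, 6 were called (1 higher, 5 lower) against 45.2% (23.9% higher, 21.3% lower). In order of time, the median log2 fold change of the 7 was 0.16, -1.39, -1.19 and -1.42, beside -0.03, -0.07, -0.03 and 0.02 over all genes tested. The 4 comparisons share the 3 control libraries.

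Fold changes were fitted after TMM scaling, which sets the bulk of genes level between libraries. At 4 h, plain library-size scaling would place the median of all genes at -0.61 on the log2 scale instead of -0.07, so a ratio of CPM at 4 h reads lower than the fitted change. At 1, 12 and 24 h that median would be -0.22, -0.34 and -0.20. None of the called directions of these genes turned under either scaling.

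Arntl, the activator, was low at 12 h. Its control libraries held 15.5, 13.7 and 16.9 CPM. The 1 h libraries held 12.2, 9.06 and 11.4 CPM and the 4 h libraries 15.3, 9.46 and 9.63 CPM. At 12 h the values were 3.58, 5.71 and 4.33 CPM, below every other BMDM library. At 24 h they were 8.84, 7.36 and 8.69 CPM, above all 3 libraries of 12 h and below all 3 of the control. The log2 fold change was -1.45 ± 0.31 (SE, n = 3 against 3, edgeR adjusted p = 6.7e-05) at 12 h. At 4 h it was 0.09 ± 0.26 (adjusted p = 0.79), with an interval of 2 SE on either side from -0.43 to 0.61. At 24 h the fitted value of -0.66 ± 0.26 missed the threshold (adjusted p = 0.027), and with library-size scaling it passed (-0.88, adjusted p = 0.0033).

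Per1, a repressor of the negative limb, showed one of the deepest falls. The control libraries held 33, 28 and 28 counts (19.6, 16.7 and 16.3 CPM), and the 4 h libraries held 1, 2 and 0. All 3 control libraries lay above every other BMDM library. Over the groups, 89 against 3 counts give a control level 29.0 times that at 4 h, with an exact 95% counting interval of 9.60 to 143. The fitted change of -4.21 ± 0.53 (edgeR adjusted p = 2.6e-09) rests on these few counts and depends on the prior count. Part of the level was back at 12 h, with 9.20, 5.14 and 5.29 CPM, and at 24 h, with 7.44, 4.6 and 3.95 CPM. From 4 to 12 h Per1 rose by 3.11 ± 0.64 on the log2 scale (adjusted p = 7.4e-05). Against the control it stayed lower by a log2 fold change of -1.10 ± 0.30 at 12 h (adjusted p = 0.0015) and -1.5 ± 0.30 at 24 h (adjusted p = 3.1e-05). The 12 h call was lost without control replicate 1 (-1.01), without 12 h replicate 2 (-0.95) or 3 (-0.96), and with DESeq2 (-1.10, adjusted p = 0.011). At 1 h, the 8.51, 13.9 and 8.56 CPM lay below the control, yet the change of -0.60 ± 0.27 missed the threshold (adjusted p = 0.084).

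Per2, the partner of Per1, had few counts in every condition. The control libraries held 0, 4 and 3 counts and the 4 h libraries 1, 0 and 0. At 12 h there were 11, 4 and 5 counts (5.62, 2.28 and 2.41 CPM), the highest mean of any condition, and at 24 h 6, 1 and 4. Over the groups, 7 against 1 count at 4 h give a ratio of 6.84 with a counting interval of 0.878 to 308, so no difference was detectable there at this depth. The 20 counts at 12 h against 1 at 4 h give a ratio of 17.1 (2.74 to 711), which covers counting error only.

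Cry1, the strongest repressor of the CLOCK-ARNTL pair, went the other way. The control libraries held 7.73, 6.55 and 7.57 CPM. At 4 h the values were 13.3, 15.6 and 12.0 CPM and at 12 h 17.9, 14.3 and 18.8 CPM. At 24 h they reached 34.9, 40.5 and 39.5 CPM, above every other library of the series. Cry1 rose against the control by 1.43 ± 0.29 on the log2 scale at 4 h (edgeR adjusted p = 2.8e-05), 1.53 ± 0.26 at 12 h (adjusted p = 2.6e-06) and 2.60 ± 0.22 at 24 h (adjusted p = 3.1e-14), a 6.08-fold difference. The step from 12 to 24 h alone was 1.08 ± 0.18 (adjusted p = 9.6e-06). At 1 h, with 5.85, 11.5 and 9.52 CPM, the groups overlapped and the change of 0.47 ± 0.31 was not called (adjusted p = 0.24).

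Cry2, its paralog, stayed low. The control libraries held 9 counts each (5.35, 5.36 and 5.24 CPM), and the 1 h libraries held 4, 1 and 4 (2.13, 0.604 and 1.90 CPM). These 2 groups did not overlap, but the gene was under the count filter and had no test. At 4 h there were 5, 3 and 6 counts, at 12 h 8, 6 and 6, and at 24 h 9, 7 and 15, a range that includes the control.

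Nr1d2, the REV-ERB with most RNA in these cells, fell, came back in part and fell again. The control libraries held 98.7, 115 and 111 CPM and the 1 h libraries 110, 111 and 98.5 CPM, in overlapping ranges. At 4 h the values were 24.0, 32.8 and 28.3 CPM, at 12 h 53.7, 57.1 and 60.2 CPM, and at 24 h 14.4, 17.9 and 16.6 CPM. No library of 4, 12 or 24 h overlapped with another of these groups or with the control. The log2 fold change against the control was -1.39 ± 0.15 at 4 h (edgeR adjusted p = 1.6e-11), -0.61 ± 0.13 at 12 h (adjusted p = 4.6e-05) and -2.50 ± 0.15 at 24 h (adjusted p = 1.2e-19), a level 5.66 times lower. The steps themselves passed: from 4 to 12 h Nr1d2 rose by 0.78 ± 0.16 (adjusted p = 5.3e-05), and from 12 to 24 h it changed by -1.89 ± 0.16 (adjusted p = 5.2e-13). Of the genes with enough counts to test, Per1 and Nr1d2 were the 2 called higher from 4 to 12 h. Bhlhe40 and Dbp also had higher means at 12 h (24.3 and 1.53 CPM) than at 4 h (14.1 and 0.222 CPM). Both had an unadjusted p under 0.05 by edgeR and neither was called, with 9 against 1 count for Dbp. At that step 4 of 7 genes were called, against 35.9% of all genes (16.7% higher, 19.2% lower). Nr1d1, its paralog, held 4, 3 and 5 counts in the control and 1, 1 and 1 at 4 h. That is a ratio of 3.91 (counting interval 1.05 to 21.6), and at 12 h (4, 1 and 3 counts) and 24 h (3, 1 and 0) the counts were too few to order.

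Bhlhe40, the E-box repressor DEC1, was held by the control at 58.3, 69.7 and 74.5 CPM and by the 1 h libraries at 79.2, 73.7 and 84.7 CPM. At 4 h the level was 16.6, 10.6 and 15 CPM. At 12 h it was 26.6, 31.4 and 14.9 CPM and at 24 h 22.8, 17.5 and 24.1 CPM. Every library from 4 h on lay below every control library. The log2 fold change was -1.75 ± 0.20 at 4 h (edgeR adjusted p = 2.7e-10), -1.19 ± 0.17 at 12 h (adjusted p = 9.5e-08) and -1.42 ± 0.17 at 24 h (adjusted p = 8.4e-10). The later steps were not called: from 4 to 12 h the value was 0.56 ± 0.24 (adjusted p = 0.048), which passed without 12 h replicate 3 (0.81) and with library-size scaling (0.78).

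Dbp, the output activator, held 13.7, 10.7 and 18.0 CPM in the control (23, 18 and 31 counts). At 1 h it held 6.91, 4.23 and 6.66 CPM, and at 4 h 1, 0 and 0 counts. At 12 h it held 3, 2 and 4 counts and at 24 h 3, 3 and 8. Dbp was thus lower in every treated library than in every control library, and lowest at 4 h. Over the groups, 72 against 1 count at 4 h give a control level 70.3 times that at 4 h (exact 95% counting interval 12.2 to 2816), and the fitted change of -5.27 ± 0.69 (edgeR adjusted p = 5.6e-09) depends on the prior count. Changes of -2.83 ± 0.43 at 12 h (adjusted p = 2.0e-07) and -2.54 ± 0.39 at 24 h (adjusted p = 2.1e-07) followed. At 1 h the change was -1.04 ± 0.32 (adjusted p = 0.0090). That call was lost with DESeq2 (adjusted p = 0.069), with unstranded counts (0.048), without the count filter (0.015) and on leaving out any 1 of 11 of the 15 libraries.

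Ccrn4l was the early responder. Its control libraries held 17.2, 11.9 and 12.2 CPM, and the 1 h libraries 116, 103 and 111 CPM. At 4 h the values were 39.3, 28.4 and 40.3 CPM. At 12 h they were 4.09, 0.571 and 6.26 CPM and at 24 h 6.98, 4.14 and 5.13 CPM, below every control library. Ccrn4l rose by 3.18 ± 0.19 on the log2 scale at 1 h (9.09-fold, edgeR adjusted p = 2.3e-19) and by 1.90 ± 0.23 at 4 h (adjusted p = 6.0e-10). It fell to -1.54 ± 0.36 against the control at 12 h (adjusted p = 2.6e-04), a group that includes a library with 1 count. At 24 h the value was -1.12 ± 0.31 (adjusted p = 0.0023), a call lost without control replicate 1 (-0.93) or 24 h replicate 2 (-0.98) or 3 (-1.07).

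Between neighbouring times, 6 of 7 genes were called from 1 to 4 h (1 higher, 5 lower, with 38.9% of all genes called, 19.8% higher and 19.1% lower) and 2 of 7 from 12 to 24 h (Cry1 higher and Nr1d2 lower, with 14.2% of all genes called, 5.31% higher and 8.90% lower). From 1 to 4 h, Cry1 was the gene that rose, by 0.96 ± 0.27 (edgeR adjusted p = 0.0025), a call lost without 1 h replicate 1 (0.73), without 4 h replicate 2 (0.84) and with library-size scaling (0.62, adjusted p = 0.043). Bhlhe40 (-2.17 ± 0.20), Nr1d2 (-1.55 ± 0.15) and Ccrn4l (-1.29 ± 0.16) fell in that step with at least 19 counts in every library.

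**Figure D2:**
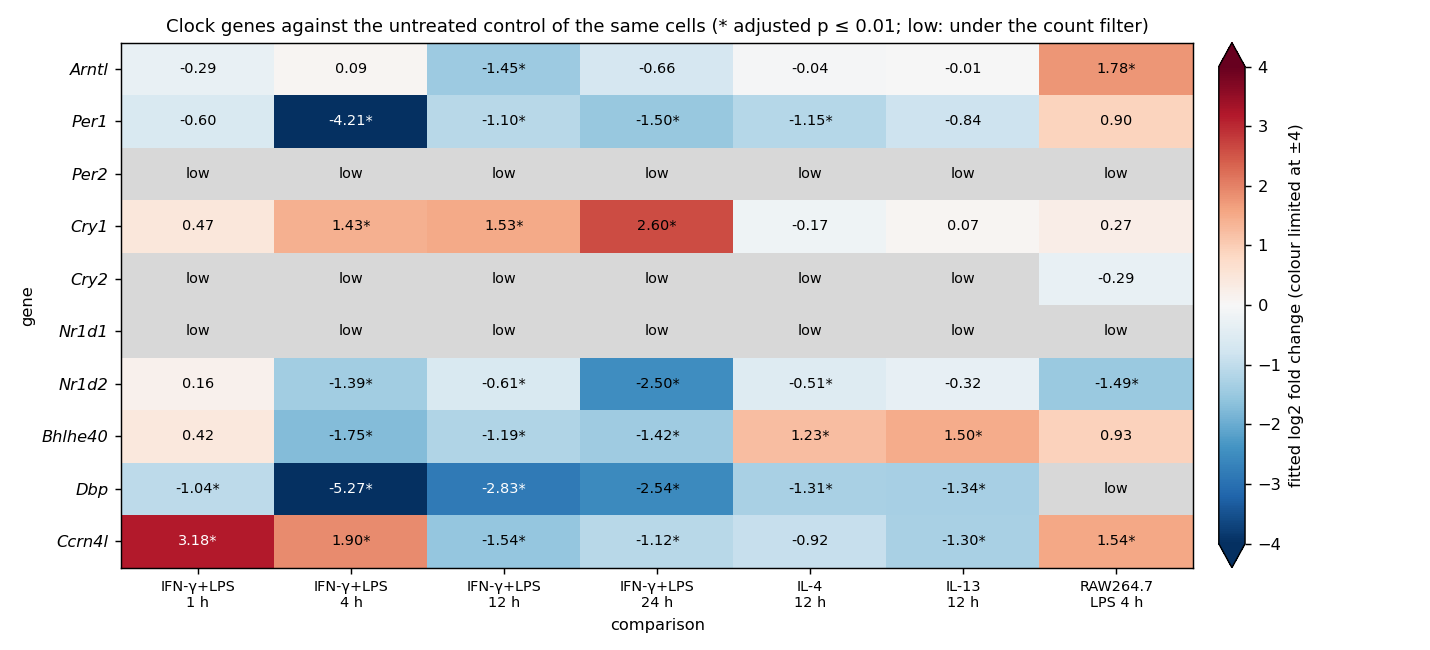
Fitted log2 fold changes (colour, limited at 4 in either direction) of the 10 clock genes (rows) in 7 comparisons with the untreated control of the same cells (columns). Numbers are the fitted values, an asterisk marks an adjusted p of at most 0.01, and grey cells were under the count filter. The 4 h values of Per1 (-4.21) and Dbp (-5.27) rest on 3 and 1 treated counts. Bhlhe40 is lower after IFN-γ + LPS (-1.75 at 4 h) and higher after IL-4 (1.23) and IL-13 (1.5).

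With IL-4 and IL-13, the cytokines of alternative activation, Bhlhe40 rose and Dbp fell. Of the 7 genes tested, 4 were called with IL-4 (1 higher, 3 lower), where 7.63% of all 9252 genes tested were called (4.38% higher, 3.25% lower). With IL-13, 3 were called (1 higher, 2 lower) against 10.1% (5.61% higher, 4.49% lower). The median log2 fold change of the 7 was -0.51 with IL-4 and -0.32 with IL-13, beside -0.01 over all genes in both. Both comparisons share the control libraries, and the treated cells were cultured 12 h against the 4 h of the control.

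Bhlhe40 held 155, 185 and 138 CPM with IL-4 and 211, 164 and 215 CPM with IL-13, against 58.3 to 74.5 CPM in the control. Each treated library was above every control library and above every library of the IFN-γ + LPS time course. Bhlhe40 rose by 1.23 ± 0.13 on the log2 scale with IL-4 (2.35-fold, edgeR adjusted p = 3.1e-11) and by 1.5 ± 0.12 with IL-13 (2.82-fold, adjusted p = 1.3e-14). These were the only calls among the 7 genes that held in all alternatives with both cytokines.

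Dbp held 4.63, 7.32 and 5.12 CPM with IL-4 and 7.07, 5.13 and 5.07 CPM with IL-13, below every control library. Its change was -1.31 ± 0.33 with IL-4 (edgeR adjusted p = 0.0032) and -1.34 ± 0.32 with IL-13 (adjusted p = 0.0017). The first call was lost without control replicate 3 (-1.09) or IL-4 replicate 1 (-1.17) or 3 (-1.26), and the second without control replicate 3 (-1.11) or IL-13 replicate 2 (-1.27). Both were lost with unstranded counts (adjusted p = 0.0103 and 0.0161). DESeq2 called neither, giving no adjusted p for the first and 0.0225 for the second.

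Per1 held 8.11, 8.54 and 7.04 CPM with IL-4, below the control, and 14.1, 9.68 and 6.76 CPM with IL-13, also below it but spread wider. The change was -1.15 ± 0.28 with IL-4 (edgeR adjusted p = 0.0030) and -0.84 ± 0.27 with IL-13 (adjusted p = 0.021). The IL-4 call was lost without control replicate 1 (-1.06) or any 1 of the IL-4 libraries (-1.19 to -1.08) and with DESeq2 (adjusted p = 0.0270), and the IL-13 value passed without IL-13 replicate 1 (-1.12). Nr1d2 held 70.7, 68.9 and 89.6 CPM with IL-4 and 68.7, 89.4 and 108 CPM with IL-13. Its IL-4 change of -0.51 ± 0.13 was called (adjusted p = 0.0054) but not without control replicate 2 (-0.46) or 3 (-0.48) or IL-4 replicate 1 (-0.44) or 2 (-0.43), nor with DESeq2 (adjusted p = 0.0308). Its IL-13 change of -0.32 ± 0.13 was not called (adjusted p = 0.087) except without IL-13 replicate 3 (-0.48).

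Ccrn4l held 10.4, 4.88 and 6.40 CPM with IL-4 and 6.42, 5.70 and 5.07 CPM with IL-13, all below the control. The change was called with IL-13 (-1.30 ± 0.32, edgeR adjusted p = 0.0026) and not with IL-4 (-0.92 ± 0.31, adjusted p = 0.040). The IL-13 call was lost without control replicate 1 (-1.12) or IL-13 replicate 2 (-1.30) or 3 (-1.22) and with DESeq2 (adjusted p = 0.0278). Arntl and Cry1 overlapped with the control in both. Arntl differed by -0.04 with IL-4 (interval of 2 SE on either side, -0.54 to 0.46) and -0.01 with IL-13 (-0.50 to 0.48). Cry1 differed by -0.17 (-0.89 to 0.55) and 0.07 (-0.62 to 0.75). Per2, Cry2 and Nr1d1 had at most 12 counts in any of these 6 libraries.

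No clock gene was called between the 2 cytokines. In edgeR's test of IL-13 against IL-4, 0 of 7 genes were called, with 10 of 9252 genes (0.108%, of which 0.0865% higher and 0.0216% lower) called in all. At an unadjusted p under 0.05 there was 1, Bhlhe40 (log2 difference 0.26 ± 0.11, edgeR adjusted p = 0.57), and DESeq2 also called 0. Intervals of 2 SE on either side ran from 0.04 to 0.48 for Bhlhe40, from -0.33 to 0.94 for Per1 and from -1.13 to 0.36 for Ccrn4l.

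**Figure D3:**
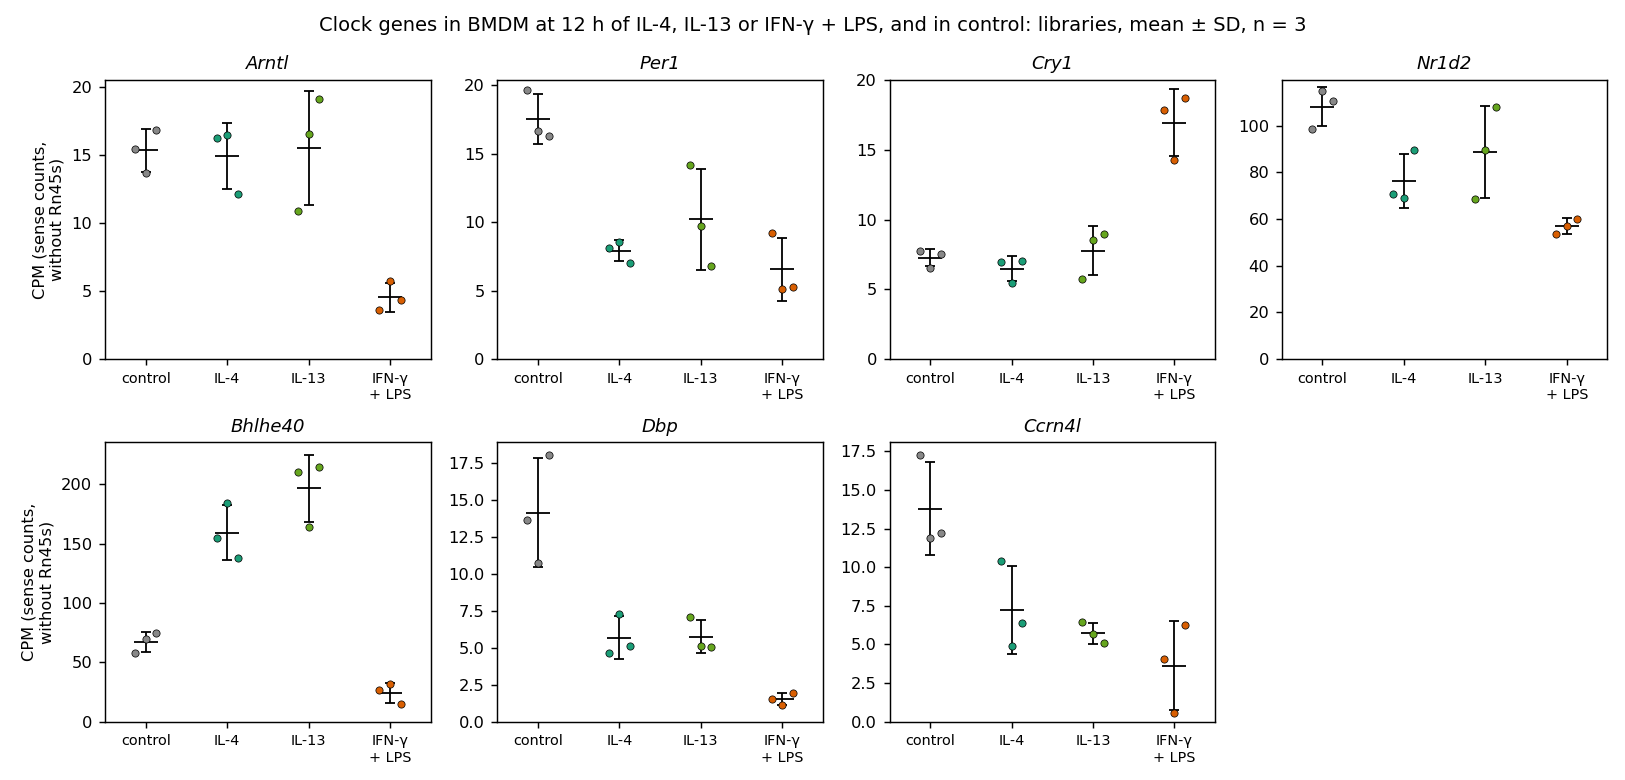
Levels of the 7 testable clock genes, in CPM (vertical axis, from 0), in BMDM control (labelled 4 h) and after 12 h of IL-4, IL-13 or IFN-γ + LPS. Points are libraries and bars the mean ± SD of 3. Bhlhe40 separates the treatments most widely, with means of 159 CPM (IL-4), 197 CPM (IL-13) and 24.3 CPM (IFN-γ + LPS), and Arntl and Cry1 were called with IFN-γ + LPS and with neither cytokine.

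Classical and alternative activation were set side by side at an equal labelled 12 h in a fit of all 21 BMDM libraries. They lie on opposite sides of the split in antisense Rn45s counts. Of 7 genes, 3 were called with IFN-γ + LPS against IL-4 (43.0% of 9841 genes called, 22.5% higher and 20.6% lower) and 3 against IL-13 (43.1% called, 22.2% higher and 20.9% lower), Cry1 higher and Arntl and Bhlhe40 lower in both. Bhlhe40 was lower by a log2 difference of -2.38 ± 0.16 against IL-4 (edgeR adjusted p = 6.5e-20) and -2.66 ± 0.16 against IL-13 (adjusted p = 1.9e-22). Cry1 was higher by 1.74 ± 0.27 (adjusted p = 1.9e-07) and 1.49 ± 0.26 (adjusted p = 1.8e-06). Arntl was lower by -1.37 ± 0.31 (adjusted p = 1.6e-04) and -1.42 ± 0.31 (adjusted p = 8.1e-05). In none of these 3 genes did the IFN-γ + LPS libraries overlap with those of either cytokine. Per1 differed by 0.08 ± 0.35 against IL-4 (interval of 2 SE on either side, -0.62 to 0.78), and Dbp by -1.48 ± 0.52 (adjusted p = 0.013). Dbp and Nr1d2 were called in both with library-size scaling, which gave 5 genes each. There the median of all genes moved from -0.02 to -0.37 against IL-4 and from -0.03 to -0.40 against IL-13.

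In RAW264.7, LPS raised Arntl and Ccrn4l and lowered Nr1d2. Of 7 genes tested there (Cry2 in place of Dbp), 3 were called at 4 h (2 higher, 1 lower), where 27.9% of 9406 genes were called (15.1% higher, 12.8% lower). The median of the 7 was 0.90 on the log2 scale, beside 0.00 over all genes. Arntl held 19.3 and 20.6 CPM in control and 55.3 and 65.2 CPM with LPS, the highest Arntl levels of the series. It rose by 1.78 ± 0.18 (3.43-fold, n = 2 against 2, edgeR adjusted p = 2.3e-21).

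Nr1d2, its repressor, held 40.4 and 44.9 CPM in RAW264.7 control and 11.1 and 15.5 CPM with LPS. It fell by 1.49 ± 0.21 (edgeR adjusted p = 5.6e-11). Ccrn4l held 7.80 and 5.15 CPM against 18.1 and 15.5 CPM with LPS and rose by 1.54 ± 0.32 (adjusted p = 1.1e-05), a call lost with DESeq2 (adjusted p = 0.015). For all 3 genes the LPS libraries lay apart from the controls. Per1 held 7.80 and 3.28 CPM in control and 8.36 and 10.0 CPM with LPS, a change of 0.90 ± 0.38 that missed the threshold (adjusted p = 0.047). Bhlhe40 was nearly off, with 4 and 19 counts in control and 13 and 28 with LPS, in overlapping ranges. Its change of 0.93 ± 0.39 was not called (adjusted p = 0.044), but without control replicate 2 it was (2.45), in a fit whose spread comes from the LPS pair alone. Cry1, at 25.2 and 26.2 against 26.0 and 28.8 CPM, changed by 0.27 ± 0.20 (adjusted p = 0.30), and Cry2, at 17 and 12 against 8 and 14 counts, by -0.29 ± 0.42. Dbp held 14 and 6 against 7 and 4 counts and was under the filter, as were Per2 (2 to 3 counts) and Nr1d1 (2 to 9 counts).

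At rest the 2 kinds of macrophage held different levels of these genes, with 6 of 7 called (1 higher, 5 lower in RAW264.7) against 70.5% of 9879 genes (34.5% higher, 36.0% lower). Bhlhe40 differed most, by -3.92 ± 0.23 on the log2 scale (edgeR adjusted p = 4.4e-62). Per1 (-1.92 ± 0.33), Dbp (-1.87 ± 0.36), Nr1d2 (-1.62 ± 0.14) and Ccrn4l (-1.35 ± 0.33) were also lower. Cry1 was higher (1.54 ± 0.28), and Arntl differed by 0.10 ± 0.25 (adjusted p = 0.72). Cell type and medium differ together here and cannot be told apart.

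**Figure D4:**
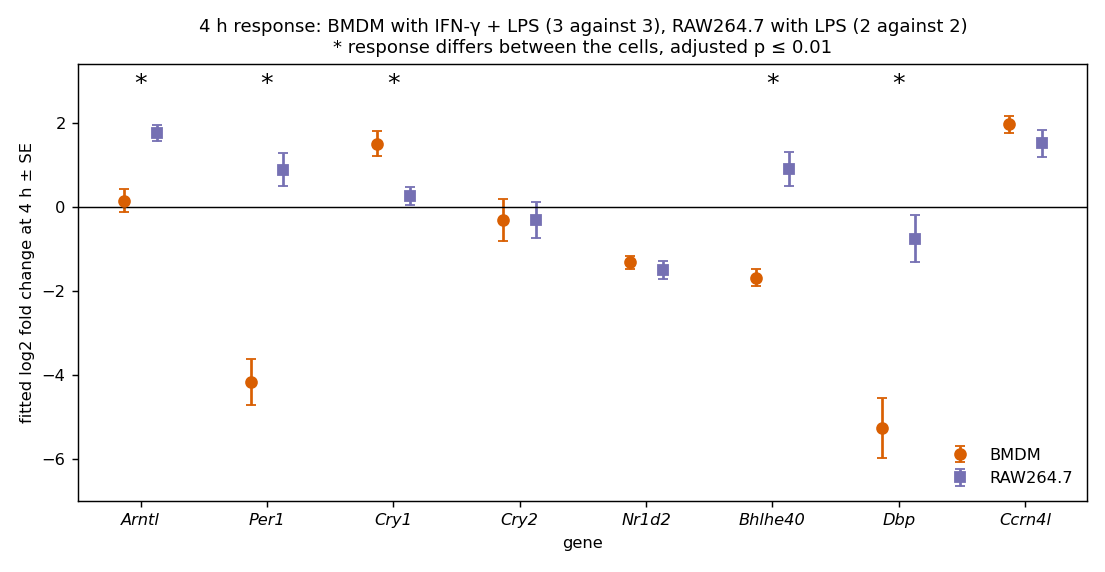
Fitted log2 fold change ± SE at 4 h (vertical axis) of 8 clock genes in BMDMs given IFN-γ + LPS (circles, 3 against 3) and RAW264.7 given LPS (squares, 2 against 2), both from 1 fit of 10 libraries. An asterisk marks a difference between the responses at an adjusted p of at most 0.01. Nr1d2 lies at -1.33 in BMDMs and -1.51 in RAW264.7, while Per1 lies at -4.17 and 0.88.

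The 4 h responses were compared directly by an interaction term over 10 libraries, for 8 genes. The response differed for 5 of the 8 (4 higher and 1 lower in RAW264.7), against 27.5% of 10269 genes (11.1% higher, 16.4% lower). The difference, RAW264.7 minus BMDM, was 5.05 ± 0.71 on the log2 scale for Per1 (edgeR adjusted p = 5.1e-10), 4.50 ± 1.13 for Dbp (adjusted p = 5.3e-04) and 2.59 ± 0.46 for Bhlhe40 (adjusted p = 1.5e-06). These 3 genes fell in BMDMs and were not called in RAW264.7. For Arntl the difference was 1.60 ± 0.33 (adjusted p = 1.7e-05), from a rise in RAW264.7 and a fitted 0.15 ± 0.26 in BMDMs. For Cry1 it was -1.24 ± 0.37 (adjusted p = 0.0037), from a rise in BMDMs and 0.25 ± 0.21 in RAW264.7. Nr1d2 fell in both, and its responses differed by -0.18 ± 0.27 (adjusted p = 0.67, interval of 2 SE on either side -0.73 to 0.37). Ccrn4l rose in both, with a difference of -0.45 ± 0.42 (-1.28 to 0.38). Since RAW264.7 had no IFN-γ, the cells and the stimulus cannot be told apart. The Cry1 difference was lost with DESeq2 (adjusted p = 0.032), with library-size scaling (-0.81) and without control replicate 2 (-1.17), 4 h replicate 2 (-1.11), RAW264.7 control replicate 2 (-1.21) or RAW264.7 LPS replicate 1 (-1.20). The Dbp difference was lost with unstranded counts (2.26, adjusted p = 0.35) and without RAW264.7 LPS replicate 1 (3.95).

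Around these genes, 23 others of the clock machinery were read as a list: the partner activators, further repressors, the ROR receptors, the D-box factors, the kinases and ubiquitin ligases of the PER and CRY proteins, and outputs. In BMDMs 16 of the 23 had enough counts to test. Against the control, IFN-γ + LPS called 8 of them at 1 h (5 higher, 3 lower, beside 26.0% of all genes), 11 at 4 h (6 higher, 5 lower, beside 51.5%), 11 at 12 h (3 higher, 8 lower, beside 47.3%) and 13 at 24 h (2 higher, 11 lower, beside 45.2%). IL-4 called 3 (2 higher, 1 lower, beside 7.63%) and IL-13 5 (2 higher, 3 lower, beside 10.1%). LPS in RAW264.7 called 5 of 15 (1 higher, 4 lower, beside 27.9%). The list's median log2 fold change was -0.17 at 4 h and -0.99 at 24 h, beside -0.07 and 0.02 over all genes. At 12 h, IFN-γ + LPS differed from IL-4 for 9 of the 16 (1 higher, 8 lower, beside 43.0% of all genes) and from IL-13 for 11 (2 higher, 9 lower, beside 43.1%). IL-13 differed from IL-4 for 0 of the 16 by edgeR (beside 0.108% of all genes), with Bhlhe41, Nfil3 and Wee1 at an unadjusted p under 0.05, and DESeq2 called none of those it was run for.

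Among the activators, Clock held a mean of 36.8 CPM in control and 27.6 CPM at 4 h, and its fitted change was called at 24 h alone (-0.61), a call lost with DESeq2 (-0.64) and without any 1 of 7 of the 15 libraries. Npas2 and Arntl2, which can stand in for Clock and Arntl, had at most 4 counts in any library. Of the repressors, Bhlhe41 (DEC2), the paralog of Bhlhe40, fell at every time after IFN-γ + LPS, by 0.54, 2.41, 1.40 and 1.97 on the log2 scale. It was not called with IL-4 (-0.23) and fell by 0.45 with IL-13. In RAW264.7 it fell by 2.32 with LPS. Per3 fell by 2.29 at 4 h and by 1.97 at 24 h, on 7 and 15 treated counts against 52 in the control.

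Rora, the receptor that activates Arntl against the REV-ERBs, fell by 0.84 at 1 h and by 2.46, 2.55 and 2.67 at 4, 12 and 24 h, from a mean of 41.8 CPM to 5.6 CPM at 24 h. In RAW264.7 control there was 1 count of Rora in 2 libraries and with LPS 0. Rorb had at most 1 count in any library. Of the D-box factors, Tef fell by 2.69 at 4 h and by 0.66 with IL-4 and 0.55 with IL-13, and Hlf was at 0 in all 25 libraries.

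Nfil3, the repressor at D-boxes, moved opposite to Tef and Dbp in BMDMs, but not at 24 h of IFN-γ + LPS. It rose by 1.41 at 1 h, 2.57 at 4 h and 0.93 at 12 h of IFN-γ + LPS, by 2.43 with IL-4 and by 2.78 with IL-13. The 12 h call was lost with DESeq2 (0.95), with library-size scaling (0.62) and without any 1 of 5 libraries. Its mean was 6.5 CPM in control, 26.9 CPM at 4 h, 6.6 CPM at 24 h and 46.5 CPM with IL-13. At 24 h, Tef (27.5 CPM) and Dbp (1.98 CPM) still lay below their control means (107 and 14.1 CPM). In RAW264.7 it did not pass with LPS (0.00).

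Of the enzymes that set the life of PER and CRY, the ubiquitin ligase subunit Fbxw11 rose by 1.71 at 4 h. The kinase Csnk1e was called at 12 h (-2.41) and 24 h (-2.04), and its sister Csnk1d at 4 h alone (0.53), where library-size scaling gave -0.0015 and no direction holds. Usp2, a deubiquitinase of clock proteins, had 51 counts in the control and 2 at 4 h, a ratio of 24.9 (exact 95% counting interval 6.55 to 211). Among outputs, Nampt, the rate-limiting enzyme of NAD salvage, rose by 1.84, 2.32, 2.0 and 1.56 at the 4 times, from a mean of 292.7 CPM to 1016 CPM at 4 h. The NAD-dependent deacetylase Sirt1 rose by 0.96 at 1 h and 1.63 at 4 h and then lay below the control at 12 h (-0.99) and 24 h (-0.93). In RAW264.7, Nampt changed by -0.03 and was not called, and Sirt1 fell by 1.24. The cell cycle kinase Wee1 fell by 2.24 at 24 h and by 1.39 with LPS in RAW264.7, a call lost with DESeq2, with unstranded counts and without any 1 of the 4 libraries. The kinase Gsk3b was called at 12 and 24 h (-0.57 at both), and Btrc, a ligase subunit like Fbxw11, in no comparison with a control. The 4 h response differed between the cells for 7 of 16 (2 higher and 5 lower in RAW264.7, beside 27.5% of all genes), among them Sirt1 (-2.95), Nfil3 (-2.65) and Nampt (-2.44).

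**Figure D5:**
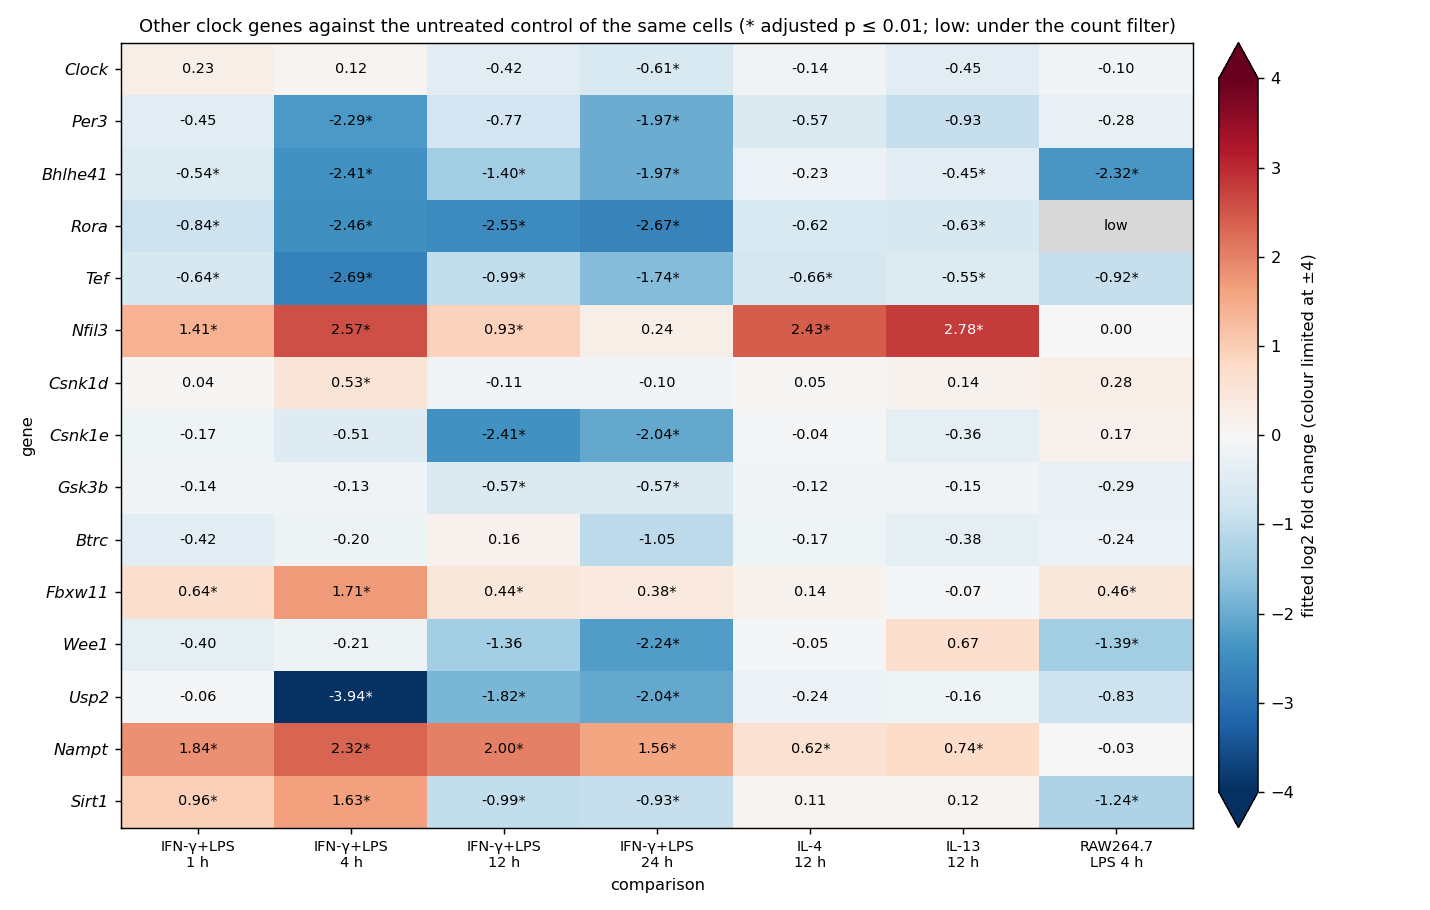
Fitted log2 fold changes (colour, limited at 4 in either direction) of 15 other clock genes with enough counts (rows) in the same 7 comparisons (columns). Numbers are fitted values, an asterisk marks an adjusted p of at most 0.01, and the grey cell was under the count filter. The 4 h value of Usp2 rests on 2 treated counts, and that of Csnk1d (0.53) turns to -0.0015 with library-size scaling. Nfil3 and Nampt are higher with IL-4 (2.43 and 0.62) and IL-13 (2.78 and 0.74), and Bhlhe41, Rora and Tef are lower at all 4 times of IFN-γ + LPS.

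Across the 21 BMDM libraries, the members' log2 CPM (prior count 2) varied together to different degrees. Per1 and Dbp had Pearson's r = 0.85, Dbp and Bhlhe40 r = 0.76 and Nr1d2 and Dbp r = 0.74. Cry1 ran against Nr1d2 (r = -0.84) and Bhlhe40 (r = -0.75). Ccrn4l was near 0 with Per1 (r = -0.11), Dbp (r = 0.08) and Bhlhe40 (r = -0.04). The libraries form 7 groups and each value shares its library's depth, so these describe the groups' means more than single libraries. The CPM were scaled to library size without TMM, so a shift shared by the genes of a group enters every r here. Outside both lists, among 8740 genes with a mean of at least 10 CPM in some BMDM condition, the most alike were Rap2a (r = 0.94) and Madd (0.93) for Per1, Ddt (0.95) and Sepw1 (0.93) for Cry1, and Il7r (0.96) and Tbc1d15 (0.95) for Nr1d2. For Arntl they were Abca2 and Eif3f (both 0.92), for Dbp Ago4 (0.96) and Nbr1 (0.95), for Bhlhe40 Mical2 and Ctnnb1 (both 0.97) and for Ccrn4l Hmgb2 (0.95) and C5ar1 (0.94).

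In the order of mean CPM over all 9 conditions, few neighbours stood apart. Nr1d2 ran from BMDM control (108 CPM) and 1 h (106 CPM) over IL-13 (88.8 CPM) and IL-4 (76.4 CPM), each overlapping the next. In CPM, steps without overlap then led to 12 h (57.0 CPM), RAW264.7 control (42.7 CPM), 4 h (28.4 CPM) and 24 h (16.3 CPM). The last overlapped RAW264.7 with LPS (13.3 CPM). These CPM were scaled to library size without TMM. TMM factors were 0.699 to 0.765 at 4 h and 0.805 to 0.877 at 12 h. They were 1.08 to 1.11 with IL-4 and 1.29 to 1.31 in RAW264.7 control. The steps of Nr1d2 between these 4 conditions therefore depend on the scaling. With TMM, edgeR did not call Nr1d2 between 12 h and IL-4. For Bhlhe40, IL-13 and IL-4 overlapped at the top and the RAW264.7 groups at the bottom (8.87 and 5.37 CPM). Per1 was set apart at both ends, by the BMDM control (17.5 CPM) and the 4 h libraries (0.593 CPM), and the 7 conditions between them each overlapped with the next. For Nr1d1 and Per2, each of the 9 conditions overlapped with its neighbour.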

How the data were processed

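RNA-seq counts per gene were deposited for 25 libraries. According to the paper's methods and the submitters' processing notes, libraries were rRNA-depleted, strand-specific and sequenced in pairs, and the authors trimmed reads with Trimmomatic 0.33 (base calls by CASAVA 1.8.2), aligned them to mm10 with STAR 2.5.1 and let STAR count them. The annotation release is not given in the sources used here. Each deposited file holds whole-number counts, unstranded and for either strand. Sense counts were used here, since they outnumbered antisense counts 118-fold in sum, and Rn45s was left out.

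Groups came from the labels. Each comparison was fitted with edgeR 4.0.16 (R 4.3.3, limma 3.58.1): TMM scaling, filterByExpr by group, robust quasi-likelihood fit and F test, Benjamini-Hochberg adjustment over all genes tested, with a call at an adjusted p of at most 0.01. The time course was 1 fit of 15 libraries, IL-4 and IL-13 1 fit of 9, the 12 h comparisons 1 fit of 21, RAW264.7 1 fit of 4, the resting cells 1 of 5 and the difference of responses 1 of 10. The SE is the absolute log2 fold change over the root of F. Small sums were compared by the exact 95% binomial interval of their ratio (SciPy 1.17.1), which covers counting error only. The scripts were tested on simulated data. Between replicates, chi-square per degree of freedom was 1.30 to 4.53, so replicates differed by more than sampling noise. Alternatives were RLE scaling, DESeq2 1.42.0, no filter beyond 1 count, Rn45s kept, unstranded counts, a replicate block, an added cutoff of 1 on the log2 scale, 1 fit of all BMDMs, leaving out each library and, added after seeing the data, library-size scaling. The same alternatives for the other clock genes and Thra were also added after seeing the data. All 10 clock genes were named in every comparison, and of 23 others those called or with a role no member has, except 2 of the 23 that are counted but not reported here by name. For each member with a mean of at least 10 CPM in a BMDM condition, the 2 most correlated genes were named. Members, lists and motifs were chosen with earlier results of these data known. Promoters came from RefSeq (GRCm38.p6) and positions from GENCODE M21.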

Additional observations from a re-analysis of the deposited data

Results flagged for a closer look

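The 4 h response of 5 of the 8 clock genes tested differed between RAW264.7 given LPS and BMDMs given IFN-γ + LPS by edgeR's interaction test, in which 27.5% of all 10269 genes were called. The differences, RAW264.7 minus BMDM on the log2 scale, were 5.05 for Per1, 4.50 for Dbp, 2.59 for Bhlhe40, 1.60 for Arntl and -1.24 for Cry1. The Per1 and Dbp values rest on 3 and 1 treated BMDM counts and depend on the prior count. The Dbp arm in RAW264.7 rests on 20 control and 11 treated counts. Cells, medium and IFN-γ differ together between the arms and cannot be told apart.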

How the results depend on the processing

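No call of the 10 clock genes changed direction under any alternative. Of the other genes named, Csnk1d at 4 h turned from 0.53 to -0.0015 with library-size scaling. Of 239 values of these genes, 110 were called. The added cutoff of 1 on the log2 scale ended 40 of these calls. Library-size scaling ended 15 calls besides that of Csnk1d and added 19. DESeq2 ended 13, the replicate block ended 2, and leaving out 1 library ended 81 and added 14 over 3084 values. The number of clock genes called at 1 h was 1 with DESeq2 and 1 with unstranded counts (2 in the report, and 1 to 3 without any 1 library). With DESeq2 it was 1 with IL-4 and 1 with IL-13. Without any 1 library it was 1 to 4 with IL-4 (1 without IL-4 replicate 1, and 2 without control replicate 3, IL-4 replicate 2 or 3), 1 to 4 with IL-13 (1 without IL-13 replicate 2), and 3 to 5 for the difference of 4 h responses (3 without RAW264.7 LPS replicate 1). Library-size scaling gave 5 for IFN-γ + LPS at 12 h against IL-4 and 5 against IL-13. Of 106 values of single clock genes, 60 were called. Leaving out 1 library gave 1361 such values, of which 40 lost and 5 gained a call. RLE scaling, keeping Rn45s and 1 fit of all BMDMs changed none of them, unstranded counts lost 4 and the added fold cutoff lost 4. DESeq2 lost 8 of the 59 called that it gave an adjusted p for. With the replicate block no call of the 10 changed (6 at 4 h, as in the report). Where leaving out a library left 1 in an arm, that library was assumed to vary like the other groups. No pairing by the labels' numbers was detectable. The deviations of same-numbered libraries had a mean correlation of 0.0215 in the time course (-0.0704 to 0.176). This cannot show whether such libraries share an animal or culture. The depth limits Per2, Nr1d1 and Cry2, for which most differences were not detectable.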
